A study of Mus musculus with 24 samples.

Results

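The genes of sterol and fatty acid synthesis were followed through nerve injury in sensory ganglia of 3 mouse strains. A list of 31 gene symbols defined the set, and all 31 were found among the 38215 genes of the deposited tables, 30 by the symbol in the file and Msmo1 by its gene identifier, since the file lists it under the older symbol Sc4mol. The set holds 7 enzymes of the mevalonate arm, 11 enzymes that turn farnesyl diphosphate into cholesterol, 6 genes of sterol sensing and sterol transport, and 7 genes of fatty acid synthesis. RNA was sequenced from dorsal root ganglia, the clusters of sensory neuron bodies beside the spinal cord, many of which send an axon into the sciatic nerve. The 24 libraries form 6 groups of 4, namely injured CAST, naive CAST, injured DBA, naive DBA, injured C57 and naive C57 ganglia. Injured ganglia were taken 5 days after crush of the sciatic nerve, and the series text calls each group a biological quadruplicate. The treatment protocol speaks of sham injury where the sample labels say naive, and the ganglia are called naive here. All mice had standard housing, total RNA was extracted with Trizol in every group, and no transgene or drug is named. The labels give no age or number of animals per library, and other strains counted in the series text were not analysed here.

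Cells build cholesterol from acetyl-CoA. The mevalonate arm makes isoprenoid units and joins them to farnesyl diphosphate, which is also the source of the lipid anchors of many signalling proteins, and a later chain of enzymes makes squalene, lanosterol and finally cholesterol. The membrane-bound SREBP transcription factors, encoded by Srebf1 and Srebf2, switch on most of these genes when sterols in the endoplasmic reticulum are low: Scap escorts them to the Golgi, and the Insig proteins hold them back. In peripheral nerve, myelinating Schwann cells are heavy users of this pathway, and growing axons also need membrane lipid.

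The deposited values are FPKM, a read count divided by gene length and library size, in which the kilobase term was found to be the whole genomic span of a gene with its introns. Values are therefore compared for the same gene between libraries, and not between genes. Estimated library totals ran from 51.4 M reads in injured C57 replicate 3 to 145.5 M in injured CAST replicate 4, with a median of 107.1 M, and the lowest member value of any library still stood for an estimated 229 reads. Of all genes, 27046 passed a filter of 10 estimated reads in 4 libraries, and all 31 members did. Log2 differences were computed after adding 1 to each FPKM, which shrinks those of weakly expressed genes, so the ratio of mean FPKM is given as well. A member is said to have risen or fallen where limma gave a Benjamini-Hochberg adjusted p under 0.05 over all 27046 genes. Adjusted p-values measure the spread between libraries labelled as biological replicates. Whole ganglia were sequenced, so fewer cells of a type and less RNA per cell cannot be told apart. Ganglia of all 6 groups carried sensory neuron markers, with summed levels of 10 markers between 753 and 909.6 FPKM. Macrophage markers were higher after crush in every strain: 9 of 10 rose in CAST, 10 of 10 in DBA and 10 of 10 in C57 ganglia.

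After crush, a few of the 31 genes moved strongly in every strain and most moved little. In CAST ganglia 6 members rose and 9 fell, in DBA ganglia 16 rose and 3 fell, and in C57 ganglia 13 rose and 4 fell. Crush changed a large share of all genes, 47.2% in CAST, 50.1% in DBA and 38.6% in C57, and the members' counts stand against that: 25.6% of all tested genes were called higher and 21.5% lower in CAST, 26.4% higher and 23.8% lower in DBA, and 18.1% higher and 20.5% lower in C57. The median log2 fold change of the 31 members was −0.02 in CAST, 0.12 in DBA and 0.09 in C57 ganglia, beside medians of 0.00 over all genes in each strain. In both DBA and C57 ganglia the members that rose outnumbered those that fell. The split in CAST depended on single settings and libraries: it was 5 higher and 12 lower with libraries scaled by their upper quartile, and 7 higher and 6 lower without naive CAST replicate 4.

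**Figure D1:**
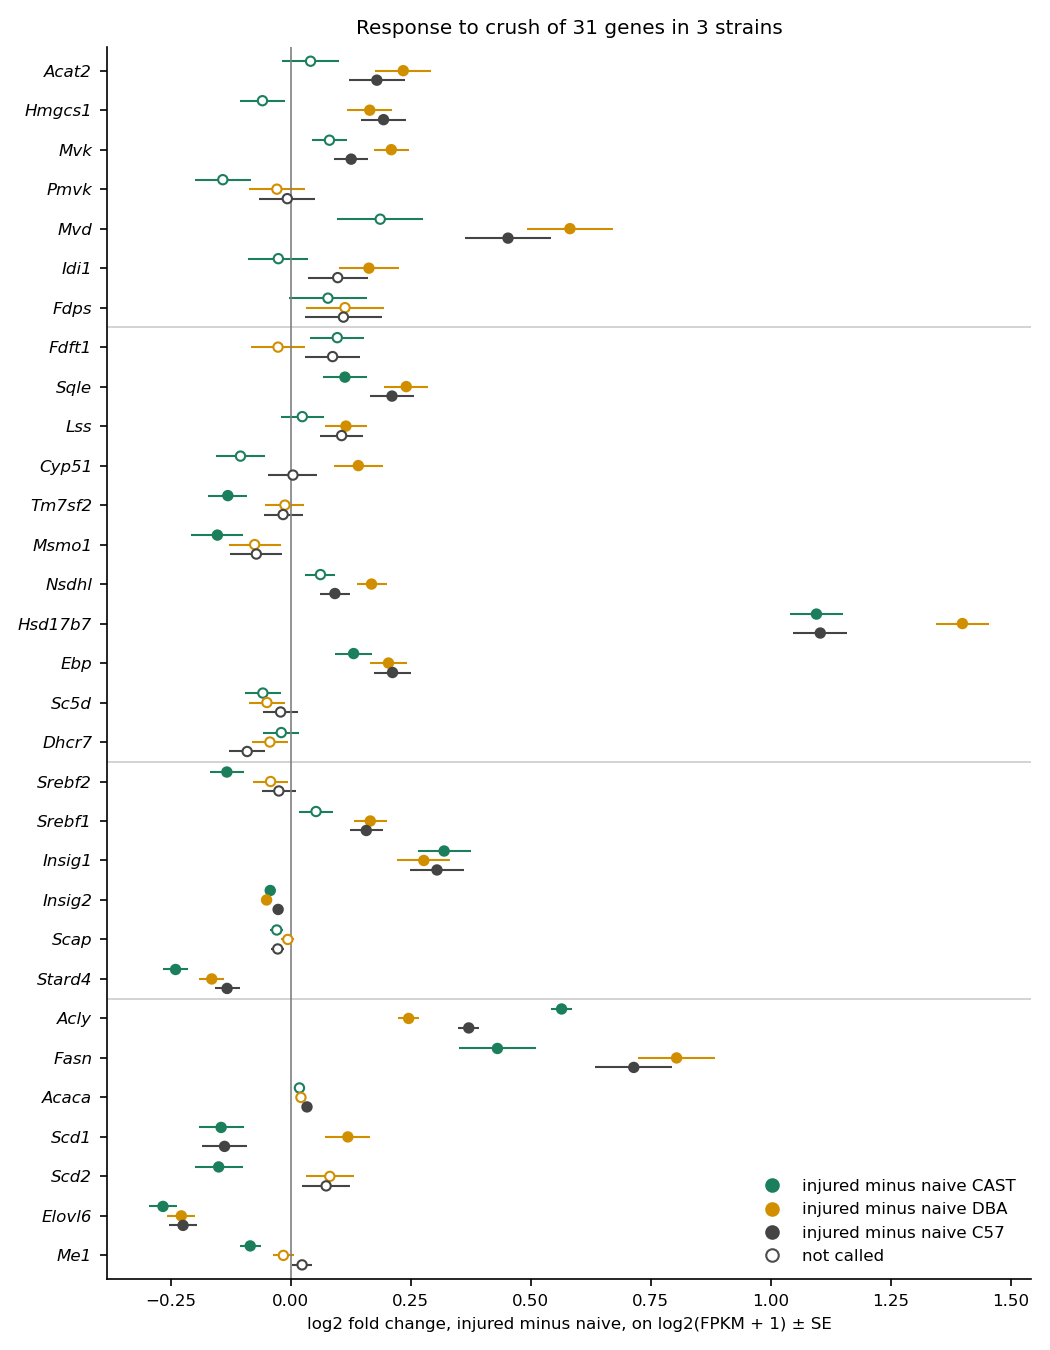
Response to crush of the 31 genes, as the log2 fold change of injured over naive ganglia on the log2(FPKM + 1) scale with its SE, for CAST, DBA and C57 from top to bottom within each gene; filled points passed the limma test and open points did not. Hsd17b7 lies furthest to the right in all 3 strains, and grey lines part the mevalonate arm, the later cholesterol enzymes, the sterol sensing and transport genes, and the fatty acid genes.

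Of the 31 members, 6 rose in all 3 strains: Sqle, Hsd17b7, Ebp, Insig1, Acly and Fasn. Another 3, Insig2, Stard4 and Elovl6, fell in all 3. Of all tested genes, 13.1% rose and 13.7% fell in all 3 strains. Pmvk, Fdps, Fdft1, Sc5d, Dhcr7 and Scap passed the test in no strain, although Pmvk was called lower in CAST in 9 alternative fits. Scd1 was called in opposite directions, lower in CAST and C57 and higher in DBA. The injured and naive libraries did not overlap for 5 higher and 7 lower members in CAST, where 25% and 21.4% of all genes were so separated. In DBA this held for 15 higher and 4 lower members, against 25.6% and 24% of all genes, and in C57 for 9 higher and 3 lower members, against 16% and 16.3%.

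RefSeq promoter windows of the build GRCm38.p6, from 250 bases before to 50 after a gene's start, were found for 25 of the 31 members, and were searched for the letters of known control elements on both strands. SREBP binds sterol response elements, here written TCACNCCAC, and the factor NF-Y, its usual partner, binds CCAAT boxes. A sterol response element of these letters was found in 1 of 25 members, 4% of them, beside 1.44% of all genes with a window. CCAAT was found in 21 of 25, or 84%, beside 41.1% of all genes, and the GC box GGGCGG in 21 of 25, or 84%, beside 38.2%. Among genes that passed the filter the shares were 1.52%, 41.7% and 56.7%. Some genes have several windows, and a gene was counted if any of them matched. By window, CCAAT was in 22 of 34 for members, beside 37.4% of all windows. The GC box was in 25 of 34, beside 35.7%. These are matches of letters in the reference strain and not shown to be binding sites; other spellings of the elements were not searched.

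The 250 bases before the start are printed for 4 members with different responses, 5′ to 3′ on the strand of the gene, with matches to TCACNCCAC or CCAAT on either strand in capitals. Hmgcs1 (chr13:119690101-119690350, plus strand) is shown because it alone held the sterol element, whose match begins 137 bases before the start. Hsd17b7 (chr1:169969206-169969455, minus strand) had the largest rise, Fasn (chr11:120824548-120824797, minus strand) rose in all strains, with 2 of its CCAAT matches overlapping on opposite strands, and Elovl6 (chr3:129532136-129532385, plus strand) fell in all strains.
Hmgcs1: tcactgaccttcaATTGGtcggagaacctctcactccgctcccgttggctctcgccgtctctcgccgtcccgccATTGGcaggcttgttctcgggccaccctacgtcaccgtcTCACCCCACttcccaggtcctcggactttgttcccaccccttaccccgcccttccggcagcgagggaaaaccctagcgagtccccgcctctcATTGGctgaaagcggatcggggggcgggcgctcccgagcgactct
Hsd17b7: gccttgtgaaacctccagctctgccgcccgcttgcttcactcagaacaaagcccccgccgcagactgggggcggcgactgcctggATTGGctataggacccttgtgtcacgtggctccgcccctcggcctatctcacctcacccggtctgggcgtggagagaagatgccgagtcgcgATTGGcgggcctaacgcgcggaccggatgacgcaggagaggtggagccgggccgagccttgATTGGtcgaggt
Fasn: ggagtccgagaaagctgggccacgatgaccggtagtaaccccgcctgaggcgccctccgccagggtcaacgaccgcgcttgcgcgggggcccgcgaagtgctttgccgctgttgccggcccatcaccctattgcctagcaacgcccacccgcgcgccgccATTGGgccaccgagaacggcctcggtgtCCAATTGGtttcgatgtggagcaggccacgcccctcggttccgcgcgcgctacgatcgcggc
Elovl6: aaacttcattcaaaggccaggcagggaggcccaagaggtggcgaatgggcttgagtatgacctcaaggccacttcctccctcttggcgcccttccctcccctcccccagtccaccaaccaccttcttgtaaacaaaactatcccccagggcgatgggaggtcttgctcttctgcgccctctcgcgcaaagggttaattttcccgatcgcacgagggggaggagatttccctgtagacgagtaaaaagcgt
Capitals are seen in Hmgcs1, Hsd17b7 and Fasn. Elovl6 has none, which says only that these letters do not occur in its window.

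The mevalonate arm rose in part in DBA and C57 ganglia and in no member in CAST ganglia. Of its 7 enzymes, 5 rose in DBA (Acat2, Hmgcs1, Mvk, Mvd and Idi1) and 4 in C57 (Acat2, Hmgcs1, Mvk and Mvd), none fell in either, and in CAST none passed the test. In alternative fits of the CAST response, Pmvk was called lower in 9, Mvk higher in 6 and Mvd higher in 2. Mvd encodes mevalonate diphosphate decarboxylase, which makes isopentenyl diphosphate, and it had the largest log2 fold change of the arm in each strain. Mvd had 4.45, 4.42, 4.91 and 4.49 FPKM in injured CAST ganglia, against 3.90, 3.51, 3.66 and 4.53 FPKM in naive CAST ganglia. In DBA it had 6.54, 6.59, 5.44 and 6.31 FPKM in injured DBA ganglia, against 4.03, 3.90, 3.45 and 3.90 FPKM in naive DBA ganglia. In C57 it had 7.02, 6.53, 5.50 and 6.63 FPKM in injured C57 ganglia, against 5.13, 3.93, 3.60 and 5.13 FPKM in naive C57 ganglia. All 4 injured libraries lay above all 4 naive ones in DBA and C57, while in CAST naive replicate 4 lay above all but injured replicate 3. By limma, Mvd rose 1.63-fold in DBA (log2 fold change 0.58 ± 0.090 (SE), adjusted p = 1.50e-05) and 1.44-fold in C57 (0.45 ± 0.090 (SE), adjusted p = 0.000374). In CAST the ratio was 1.17 and limma's adjusted p was 0.0968; it was 0.043 with the replicate number as a block and 0.0369 without naive CAST replicate 4. The gene Gm20388 overlaps Mvd on the opposite strand. The use of strand in counting is not given in the sources used here, so reads of the pair cannot be told apart. In all, another annotated gene overlaps 17 of the members. Protein-coding genes also overlap Fdps, Fdft1, Cyp51, Tm7sf2, Srebf1 and Acaca, and the same limit holds for these.

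Hmgcs1, whose promoter letters include the sterol element printed above, encodes cytosolic HMG-CoA synthase, the enzyme just before the committed step of the pathway, and it was measured with 40839 to 103368 estimated reads a library. Hmgcs1 had 33.3, 31.4, 37.2 and 34.2 FPKM in injured CAST ganglia, against 33.0, 34.4, 36.6 and 37.9 FPKM in naive CAST ganglia. The DBA libraries had 52.7, 49.0, 48.9 and 50.1 FPKM in injured DBA ganglia, against 45.3, 45.9, 43.1 and 44.3 FPKM in naive DBA ganglia. The C57 libraries had 46.9, 45.1, 44.4 and 46.6 FPKM in injured C57 ganglia, against 41.3, 39.7, 38.0 and 40.4 FPKM in naive C57 ganglia. Every injured library exceeded every naive one in DBA and C57, and the CAST groups overlapped. The rise by limma was small, 1.12-fold in DBA (log2 fold change 0.16 ± 0.047 (SE), adjusted p = 0.00643) and 1.15-fold in C57 (0.19 ± 0.047 (SE), adjusted p = 0.00258), and in CAST the log2 fold change was −0.06 ± 0.047 (SE), adjusted p = 0.341.

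The other 5 enzymes of the arm differed among themselves, with 3 that rose in at least 1 strain. Acat2, the cytosolic thiolase that joins acetyl-CoA units, rose 1.23-fold in DBA (limma adjusted p = 0.00214) and 1.16-fold in C57 (0.019), the C57 call being lost in 4 alternative fits. Mevalonate kinase, Mvk, rose 1.47-fold in DBA (5.24e-05) and 1.25-fold in C57 (0.00815); its ratio in CAST was 1.19 (0.072), and there it was called higher in 6 alternative fits, among them log2 CPM of the estimated reads with an added 0.5 (0.0294) and the fit without naive CAST replicate 4 (0.0318). Idi1, the isomerase of isopentenyl diphosphate, rose 1.14-fold in DBA (0.0348), a call that was lost in 9 alternative fits. Phosphomevalonate kinase, Pmvk, was 1.25-fold lower in injured than naive CAST ganglia, with no overlap between the groups, at an adjusted p of 0.052. The 9 alternative fits that called it lower gave 0.00605 on log2 CPM, 0.015 with the replicate block, and 0.0306 and 0.0425 under the other scalings. Its ratio of injured to naive ganglia was 0.972 in DBA and 0.990 in C57. Fdps, farnesyl diphosphate synthase, had ratios of 1.06, 1.09 and 1.08 in CAST, DBA and C57, none of which passed the test. Adjusted p-values of these enzymes are from limma.

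**Figure D2:**
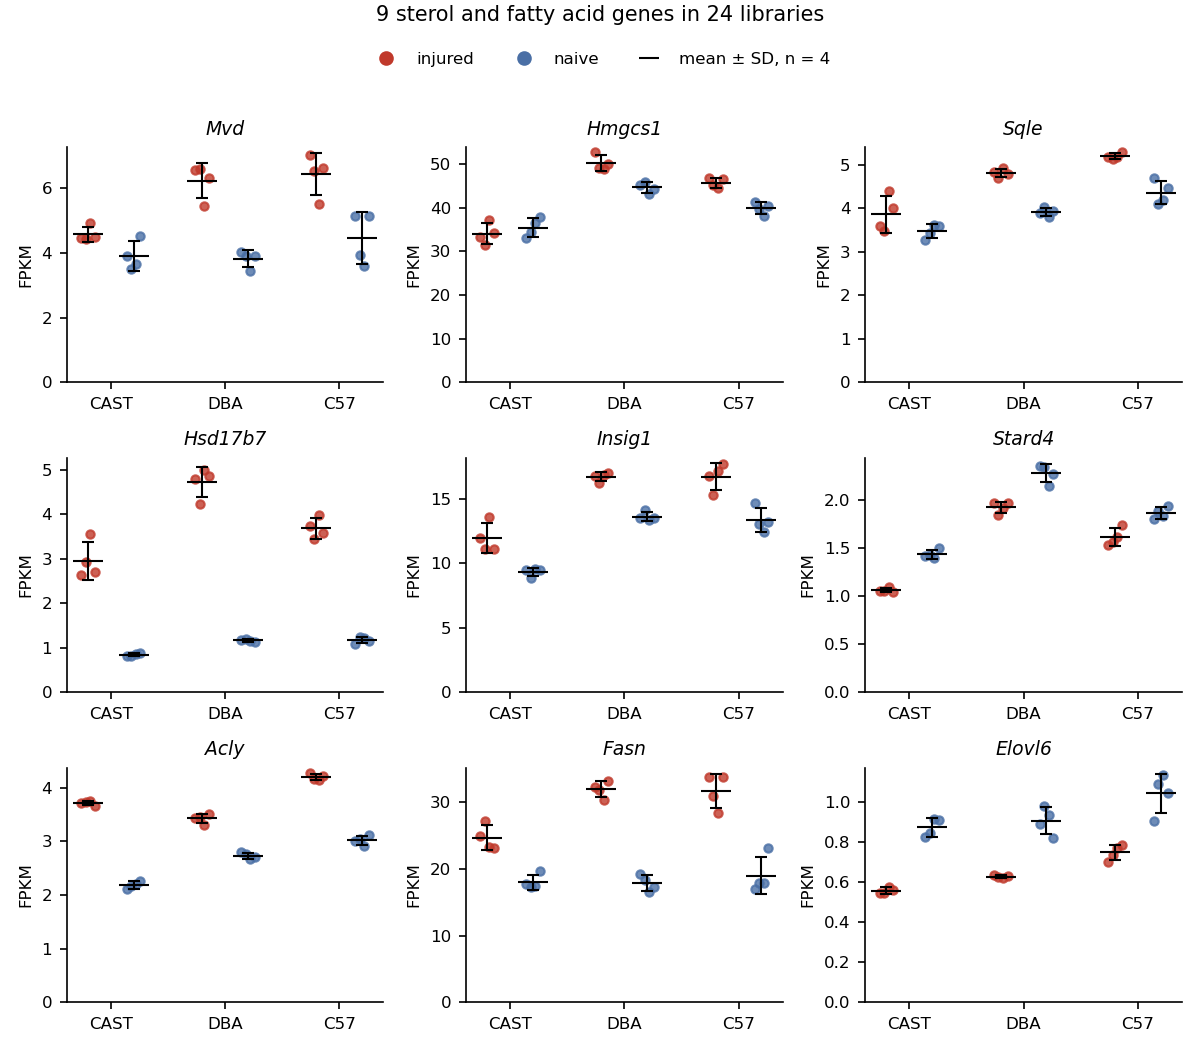
FPKM of 9 members in each library, for injured (red) and naive (blue) ganglia of CAST, DBA and C57 mice; bars give the mean ± SD of 4 libraries, and every axis starts at 0. Injured and naive libraries do not overlap in any strain for Hsd17b7, Insig1, Stard4, Acly, Fasn and Elovl6.

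Hsd17b7 stood out among the enzymes between squalene and cholesterol and among all 31 members. It encodes a ketosteroid reductase that takes part in removing methyl groups from the sterol ring after lanosterol, and in mouse it can also convert estrone to estradiol. The gene lies at chr1:169949535-169969241, minus strand (mm10), no other annotated gene of the table overlaps it, and its promoter window held 3 CCAAT matches. Hsd17b7 had 2.64, 2.92, 3.57 and 2.70 FPKM in injured CAST ganglia, against 0.814, 0.821, 0.866 and 0.883 FPKM in naive CAST ganglia. In DBA mice the values were 4.80, 4.23, 5.00 and 4.86 FPKM in injured DBA ganglia, against 1.17, 1.21, 1.16 and 1.14 FPKM in naive DBA ganglia. In C57 mice they were 3.73, 3.44, 3.99 and 3.57 FPKM in injured C57 ganglia, against 1.10, 1.24, 1.22 and 1.16 FPKM in naive C57 ganglia. Every injured library lay far above every naive one of its strain, and the spread within groups was small beside that gap. Hsd17b7 rose 3.50-fold in CAST (log2 fold change 1.09 ± 0.056 (SE), adjusted p = 2.23e-12), 4.05-fold in DBA (1.40 ± 0.056 (SE), adjusted p = 4.44e-14) and 3.12-fold in C57 (1.10 ± 0.056 (SE), adjusted p = 3.72e-12), all by limma.

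The other enzymes of this stretch had smaller fold changes. Sqle, squalene epoxidase, adds the oxygen from which the sterol ring is closed. Sqle had 3.59, 3.47, 4.38 and 4.0 FPKM in injured CAST ganglia, against 3.27, 3.44, 3.62 and 3.60 FPKM in naive CAST ganglia. For DBA these were 4.83, 4.68, 4.91 and 4.79 FPKM in injured DBA ganglia, against 3.89, 4.03, 3.80 and 3.93 FPKM in naive DBA ganglia. For C57 these were 5.18, 5.13, 5.17 and 5.29 FPKM in injured C57 ganglia, against 4.69, 4.09, 4.19 and 4.46 FPKM in naive C57 ganglia. The groups were apart in DBA and C57 and overlapped in CAST. Sqle rose 1.23-fold in DBA (adjusted p = 0.00017, limma) and 1.19-fold in C57 (0.000923). The 1.11-fold rise in CAST passed narrowly, at 0.0495, and was lost in 9 alternative fits.

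Ebp, a sterol isomerase, rose in CAST, DBA and C57 by factors of 1.19, 1.28 and 1.29 (limma adjusted p = 0.00793, 0.000153 and 0.000152), with no overlap of injured and naive libraries in any strain. Nsdhl, the dehydrogenase that works beside Hsd17b7, rose 1.24-fold in DBA (0.000124) and 1.12-fold in C57 (0.0236), lost in C57 in 5 alternative fits, and its ratio in CAST was 1.10 (0.113). In DBA, Lss, which closes the lanosterol ring, and Cyp51, the lanosterol demethylase, also rose, 1.19-fold (0.037) and 1.16-fold (0.0268). Both calls were lost without naive DBA replicate 3, in all in 7 alternative fits for Lss and 4 for Cyp51, and Cyp51 shares its locus with Akap9 on the opposite strand. Lss averaged 0.863 FPKM in injured against 0.731 FPKM in naive C57 ganglia, and 1.799 against 1.752 FPKM in CAST. Neither difference passed in the main fit, but 4 alternative fits called Lss higher in C57. Among these were log2 CPM (limma adjusted p = 0.0348) and limma-voom (0.0347). Cyp51 was called lower in CAST in 2 alternative fits.

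In CAST, Tm7sf2 and Msmo1 fell. Tm7sf2, a sterol reductase, was 1.20-fold lower in injured than naive CAST ganglia (limma adjusted p = 0.0115), and Msmo1, a methylsterol oxidase, was 1.20-fold lower (0.025). The call of Msmo1 was lost in 5 alternative fits, 4 of them without a CAST library (injured replicate 1 or 2, naive replicate 3 or 4). Tm7sf2 overlaps Vps51 on the same strand. In DBA and C57 neither passed the test, with ratios of 0.986 and 0.979 for Tm7sf2 and of 0.922 and 0.929 for Msmo1. Squalene synthase (Fdft1), the sterol desaturase Sc5d and the reductase Dhcr7 passed in no strain. Their ratios of injured to naive ganglia lay between 0.863 (Dhcr7 in C57) and 1.08 (Fdft1 in CAST).

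The sensors and carriers of sterol split in direction. Insig1 rose in all 3 strains while its relative Insig2 fell in all 3; both encode proteins of the endoplasmic reticulum that retain the complex of Scap and SREBP. Insig1 had 12.0, 11.1, 13.6 and 11.1 FPKM in injured CAST ganglia, against 9.48, 8.87, 9.59 and 9.44 FPKM in naive CAST ganglia. The libraries of DBA had 16.7, 16.2, 16.9 and 17.0 FPKM in injured DBA ganglia, against 13.5, 14.1, 13.3 and 13.5 FPKM in naive DBA ganglia. The libraries of C57 had 16.7, 15.3, 17.1 and 17.7 FPKM in injured C57 ganglia, against 14.7, 13.0, 12.4 and 13.2 FPKM in naive C57 ganglia. No injured library overlapped a naive one of its strain. The rise was 1.28-fold in CAST (log2 fold change 0.32 ± 0.055 (SE), adjusted p = 6.63e-05), 1.23-fold in DBA (0.28 ± 0.055 (SE), adjusted p = 0.000274) and 1.25-fold in C57 (0.30 ± 0.055 (SE), adjusted p = 0.000155), by limma. Insig2 was 1.24-fold lower in injured than naive CAST ganglia, 1.30-fold lower in DBA and 1.14-fold lower in C57 (limma adjusted p = 2.42e-06, 2.32e-07 and 0.000864).

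Stard4, a small soluble protein that carries sterol between membranes, fell in all 3 strains. Stard4 had 1.05, 1.06, 1.10 and 1.04 FPKM in injured CAST ganglia, against 1.41, 1.43, 1.40 and 1.5 FPKM in naive CAST ganglia. Among DBA libraries it had 1.97, 1.84, 1.92 and 1.97 FPKM in injured DBA ganglia, against 2.35, 2.35, 2.15 and 2.27 FPKM in naive DBA ganglia. Among C57 libraries it had 1.53, 1.57, 1.62 and 1.74 FPKM in injured C57 ganglia, against 1.80, 1.89, 1.84 and 1.94 FPKM in naive C57 ganglia. Every injured library was below every naive one. Its level was 1.35-fold lower in injured CAST ganglia (limma log2 fold change −0.24 ± 0.026 (SE), adjusted p = 1.78e-07), 1.18-fold lower in injured DBA (−0.16 ± 0.026 (SE), adjusted p = 2.27e-05) and 1.16-fold lower in injured C57 ganglia (−0.13 ± 0.026 (SE), adjusted p = 0.000373), each against naive ganglia of the strain. Srebf1, whose products favour fatty acid genes, rose 1.22-fold in DBA and 1.22-fold in C57 (0.000433 and 0.00102), and had a ratio of 1.06 in CAST (0.231). The gene Rai1 overlaps Srebf1 on the opposite strand. Srebf2, whose product favours cholesterol genes, fell in CAST, 1.12-fold (0.00459), and had ratios of 0.964 in DBA and 0.979 in C57. Scap did not pass in any strain, with ratios of 0.921, 0.984 and 0.925 in CAST, DBA and C57.

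Among the genes of fatty acid synthesis, Acly and Fasn rose in all strains and the elongase gene Elovl6 fell. Acly, ATP citrate lyase, supplies cytosolic acetyl-CoA to both pathways. Acly had 3.71, 3.74, 3.74 and 3.65 FPKM in injured CAST ganglia, against 2.11, 2.16, 2.21 and 2.26 FPKM in naive CAST ganglia. In ganglia of DBA it had 3.44, 3.46, 3.31 and 3.51 FPKM in injured DBA ganglia, against 2.80, 2.76, 2.67 and 2.71 FPKM in naive DBA ganglia. In ganglia of C57 it had 4.27, 4.17, 4.14 and 4.22 FPKM in injured C57 ganglia, against 3.0, 3.04, 2.92 and 3.13 FPKM in naive C57 ganglia. The 4 libraries of each group lay close together and far from the other group of the strain. The rise was 1.70-fold in CAST (log2 fold change 0.56 ± 0.022 (SE), adjusted p = 3.21e-14), 1.25-fold in DBA (0.25 ± 0.022 (SE), adjusted p = 7.01e-09) and 1.39-fold in C57 (0.37 ± 0.022 (SE), adjusted p = 3.28e-11), by limma.

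Fasn, fatty acid synthase, builds palmitate from malonyl-CoA. Fasn had 25.0, 27.2, 23.4 and 23.2 FPKM in injured CAST ganglia, against 17.8, 17.3, 17.4 and 19.7 FPKM in naive CAST ganglia. DBA libraries showed 32.4, 31.9, 30.4 and 33.2 FPKM in injured DBA ganglia, against 19.3, 18.4, 16.6 and 17.3 FPKM in naive DBA ganglia. C57 libraries showed 33.8, 31, 28.3 and 33.8 FPKM in injured C57 ganglia, against 17.0, 17.9, 18 and 23.2 FPKM in naive C57 ganglia. Groups did not overlap, although naive C57 replicate 4 stood well above the other 3 naive C57 libraries. Fasn rose 1.37-fold in CAST (log2 fold change 0.43 ± 0.080 (SE), adjusted p = 0.00015), 1.78-fold in DBA (0.80 ± 0.080 (SE), adjusted p = 4.46e-08) and 1.67-fold in C57 (0.71 ± 0.080 (SE), adjusted p = 4.24e-07), by limma. Elovl6, which lengthens palmitate, went the other way. Elovl6 had 0.546, 0.544, 0.578 and 0.563 FPKM in injured CAST ganglia, against 0.824, 0.844, 0.914 and 0.911 FPKM in naive CAST ganglia. Values in DBA were 0.635, 0.626, 0.619 and 0.630 FPKM in injured DBA ganglia, against 0.892, 0.979, 0.936 and 0.819 FPKM in naive DBA ganglia. Values in C57 were 0.700, 0.738, 0.769 and 0.787 FPKM in injured C57 ganglia, against 0.905, 1.09, 1.13 and 1.05 FPKM in naive C57 ganglia. All injured libraries were below all naive ones of their strain. Its level was 1.56-fold lower in injured CAST, 1.45-fold lower in injured DBA and 1.39-fold lower in injured C57 ganglia than in naive ganglia (limma adjusted p = 2.12e-07, 1.57e-06 and 3.29e-06).

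The stearoyl-CoA desaturases, which make oleate, responded differently between strains. Scd1 had 55.5, 57.9, 59.8 and 57.8 FPKM in injured CAST ganglia, against 60.8, 66.0, 60.2 and 69.1 FPKM in naive CAST ganglia. With DBA mice, it had 65.3, 60.7, 63.9 and 65.2 FPKM in injured DBA ganglia, against 59.7, 61.1, 56.6 and 57.2 FPKM in naive DBA ganglia. With C57 mice, it had 63.8, 66.8, 66.8 and 68.9 FPKM in injured C57 ganglia, against 74.5, 72.7, 68.4 and 78.1 FPKM in naive C57 ganglia. Only in CAST were the groups apart. Scd1 fell in CAST, 1.11-fold (log2 fold change −0.14 ± 0.047 (SE), adjusted p = 0.0146), and in C57, 1.10-fold (−0.14 ± 0.047 (SE), adjusted p = 0.0238), and rose 1.09-fold in DBA (0.12 ± 0.047 (SE), adjusted p = 0.0395), by limma. The rise in DBA was lost in 9 alternative fits, among them both other scalings. The fall in C57 was lost in 4, including those without injured replicate 1 or naive replicate 4 of C57, and the fall in CAST in 3, including those without injured replicate 1 or naive replicate 4 of CAST. Scd2 was 1.11-fold lower in injured than naive CAST ganglia (0.0181), lost in 4 alternative fits, and had ratios of 1.06 in DBA and 1.05 in C57, which did not pass. Me1, malic enzyme, a source of NADPH, was 1.11-fold lower in injured CAST ganglia (0.00298). Acaca, acetyl-CoA carboxylase, rose 1.17-fold in C57 (0.00847), a call lost with only the groups of the contrast in the fit. Its ratios were 1.12 in CAST and 1.17 in DBA, which did not pass, and 5 alternative fits called it higher in DBA.

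**Figure D3:**
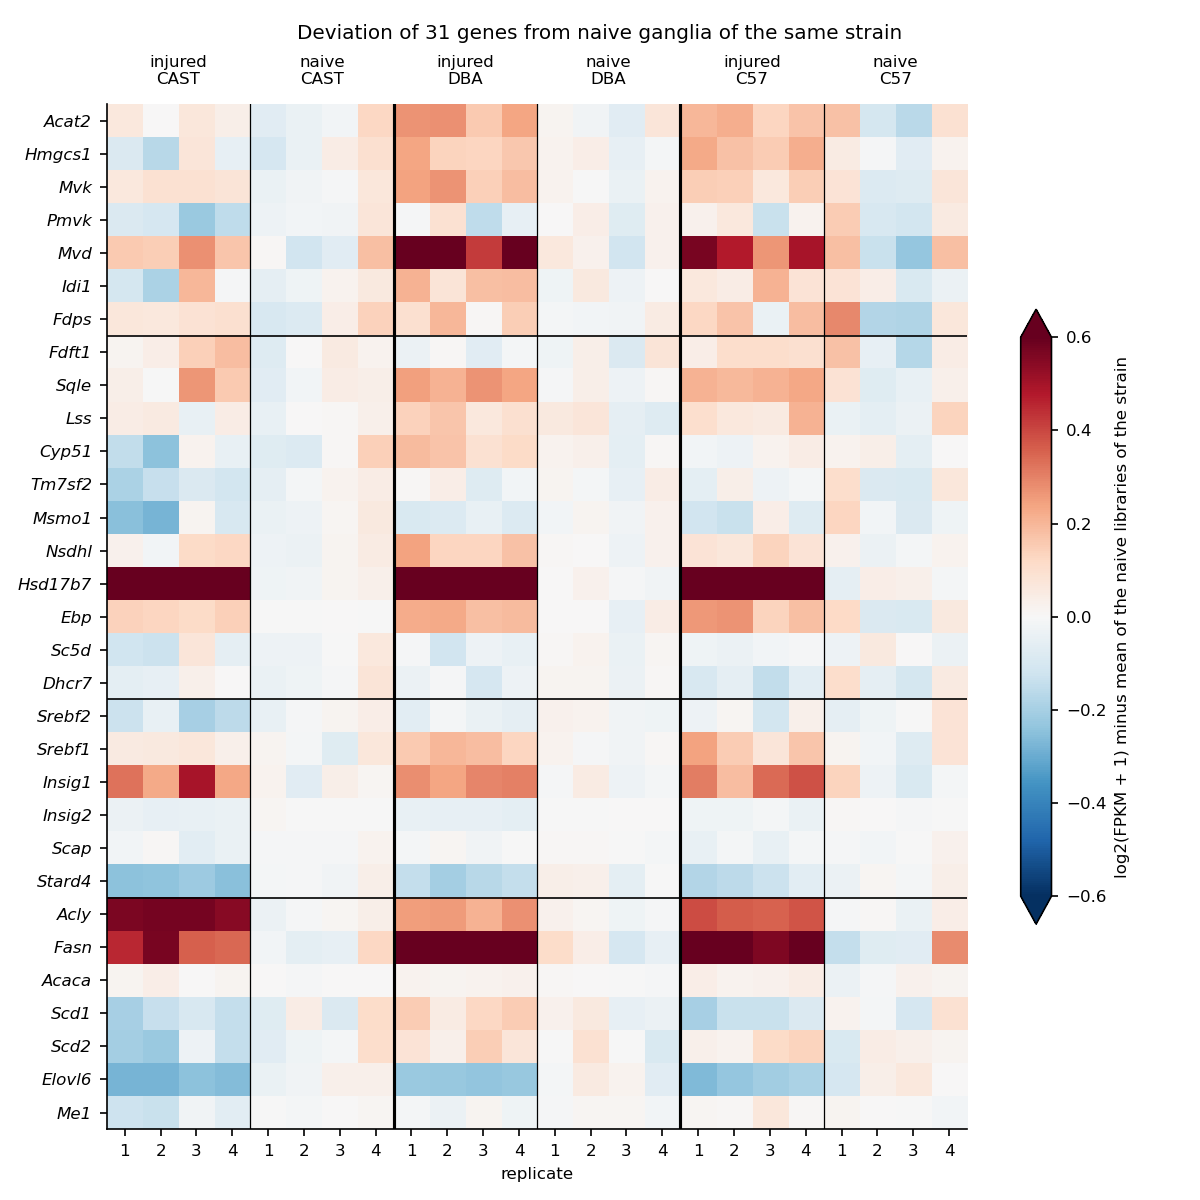
Log2(FPKM + 1) of the 31 genes in each of 24 libraries, minus the mean of the 4 naive libraries of the same strain; columns are replicates 1 to 4 of injured and then naive ganglia of CAST, DBA and C57, red is higher, blue is lower, and values beyond 0.6 take the darkest colour. Hsd17b7, Acly and Fasn are red in all injured libraries. Naive C57 replicates 1 and 4 are redder than 2 and 3 in the mevalonate arm, except for Idi1, where replicate 2 is redder than replicate 4.

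Libraries of a group were not equally high. Over the 7 mevalonate genes, the mean deviation from the naive mean of the strain was 0.15 and 0.06 in naive C57 replicates 1 and 4, and −0.08 and −0.13 in replicates 2 and 3, on the log2(FPKM + 1) scale. The injured C57 libraries had 0.19, 0.18, 0.09 and 0.19 on the same measure, so naive C57 replicate 1 lay inside their range. Injured DBA libraries had 0.24, 0.24, 0.13 and 0.21, all above the naive DBA libraries, whose highest was 0.03. Injured CAST libraries had 0.01, −0.02, 0.08 and 0.02, and the naive CAST libraries ran from −0.05 to 0.10. These library means share the depth and cell content of each library, and no test was made on them. Leaving out naive C57 replicate 1 brought Fdps and Fdft1 to a rise in C57 (log2 fold changes of 0.21 and 0.15), and leaving out naive C57 replicate 1, injured C57 replicate 3 and naive DBA replicate 3 together gave 14 higher and 3 lower members in C57, 13 and 3 in DBA, and 7 and 10 in CAST. Those 3 libraries had been set apart in earlier work on these files by depth, a principal component or muscle transcripts; summed muscle markers were 39.5 FPKM in naive DBA replicate 3.

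The difference between strains in the response was tested directly, as the response in CAST minus that in another strain. Against C57, the response in CAST was lower for 27 of the 31 members, with a median of −0.08 beside 0.00 over all genes, but only 4 differences passed the test. That share is close to the 13.1% of all genes that were called, 7.99% higher and 5.14% lower. Acly responded more strongly in CAST than in C57, by 0.19 ± 0.031 (SE), adjusted p = 0.000153 (limma). Hmgcs1 (−0.25 ± 0.067 (SE), adjusted p = 0.0146), Scd2 (−0.22 ± 0.071 (SE), adjusted p = 0.0414) and Me1 (−0.11 ± 0.031 (SE), adjusted p = 0.022) responded less by limma. The call of Scd2 was lost in 13 alternative fits, and with only the 4 groups of the contrast in the fit none of the 3 lower differences was called. Stard4 did not pass in the main fit, but 7 alternative fits called its response lower in CAST. Among these were the upper-quartile and median-of-ratios scalings (limma adjusted p = 0.0431 and 0.033).

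Against DBA, the response in CAST was lower for 26 of the 31 members, with a median of −0.09, and 7 differences were called lower and 1 higher, where 15.6% of all genes were called, 7.54% lower and 8.08% higher. Acly again responded more in CAST by limma (0.32 ± 0.031 (SE), adjusted p = 2.33e-07). The 7 with a lower response in CAST were Mvd (−0.40 ± 0.13 (SE), adjusted p = 0.0386), Fasn (−0.37 ± 0.11 (SE), adjusted p = 0.0291), Hsd17b7 (−0.30 ± 0.079 (SE), adjusted p = 0.0105), Scd1 (−0.26 ± 0.066 (SE), adjusted p = 0.00806), Cyp51 (−0.25 ± 0.072 (SE), adjusted p = 0.0238), Scd2 (−0.23 ± 0.071 (SE), adjusted p = 0.0298) and Hmgcs1 (−0.22 ± 0.067 (SE), adjusted p = 0.0265), by limma. In alternative fits the call was lost 12 times for Mvd, 8 for Hmgcs1, 7 each for Fasn and Cyp51, and 5 for Scd2. The count of 7 rests on single libraries. It was 2 without naive CAST replicate 4, 3 without injured CAST replicate 1 or 2, injured DBA replicate 1 or naive DBA replicate 3, and 4 without naive DBA replicate 4. The difference in Hsd17b7 was not called on log2 CPM of the estimated reads, with a pseudocount of 0.1, or with limma-voom. Stard4, not called in the main fit, was called lower in CAST in these 3 fits. Both comparisons use the same CAST libraries, so they are not independent.

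The response in DBA minus that in C57 was called for 3 members, where 9.03% of all genes were called, 5.38% higher and 3.65% lower. Hsd17b7 (0.30 ± 0.079 (SE), adjusted p = 0.0203) and Scd1 (0.26 ± 0.066 (SE), adjusted p = 0.0162) responded more in DBA, and Acly less (−0.13 ± 0.031 (SE), adjusted p = 0.0118), by limma. Without the 3 libraries set apart, the difference in Scd1 was not called.

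Naive ganglia of CAST had lower levels of many of these genes than naive ganglia of C57. Of the 31 members, 21 were lower and 4 higher in naive CAST, where 44% of all genes were called, 19.9% lower and 24.1% higher, and the median log2 difference was −0.16 beside 0.00 over all genes. Libraries of the strains did not overlap for 16 lower and 4 higher members, where 18.5% and 22.5% of all genes were so separated. Lower in naive CAST were 5 of 7 mevalonate genes, 8 of 11 later cholesterol genes, 3 of 6 sterol sensing and transport genes, and 5 of 7 fatty acid genes. Reads of all strains were aligned to mm10, the reference genome of a C57 strain, and the effect of CAST sequence differences on the levels was not tested.

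**Figure D4:**
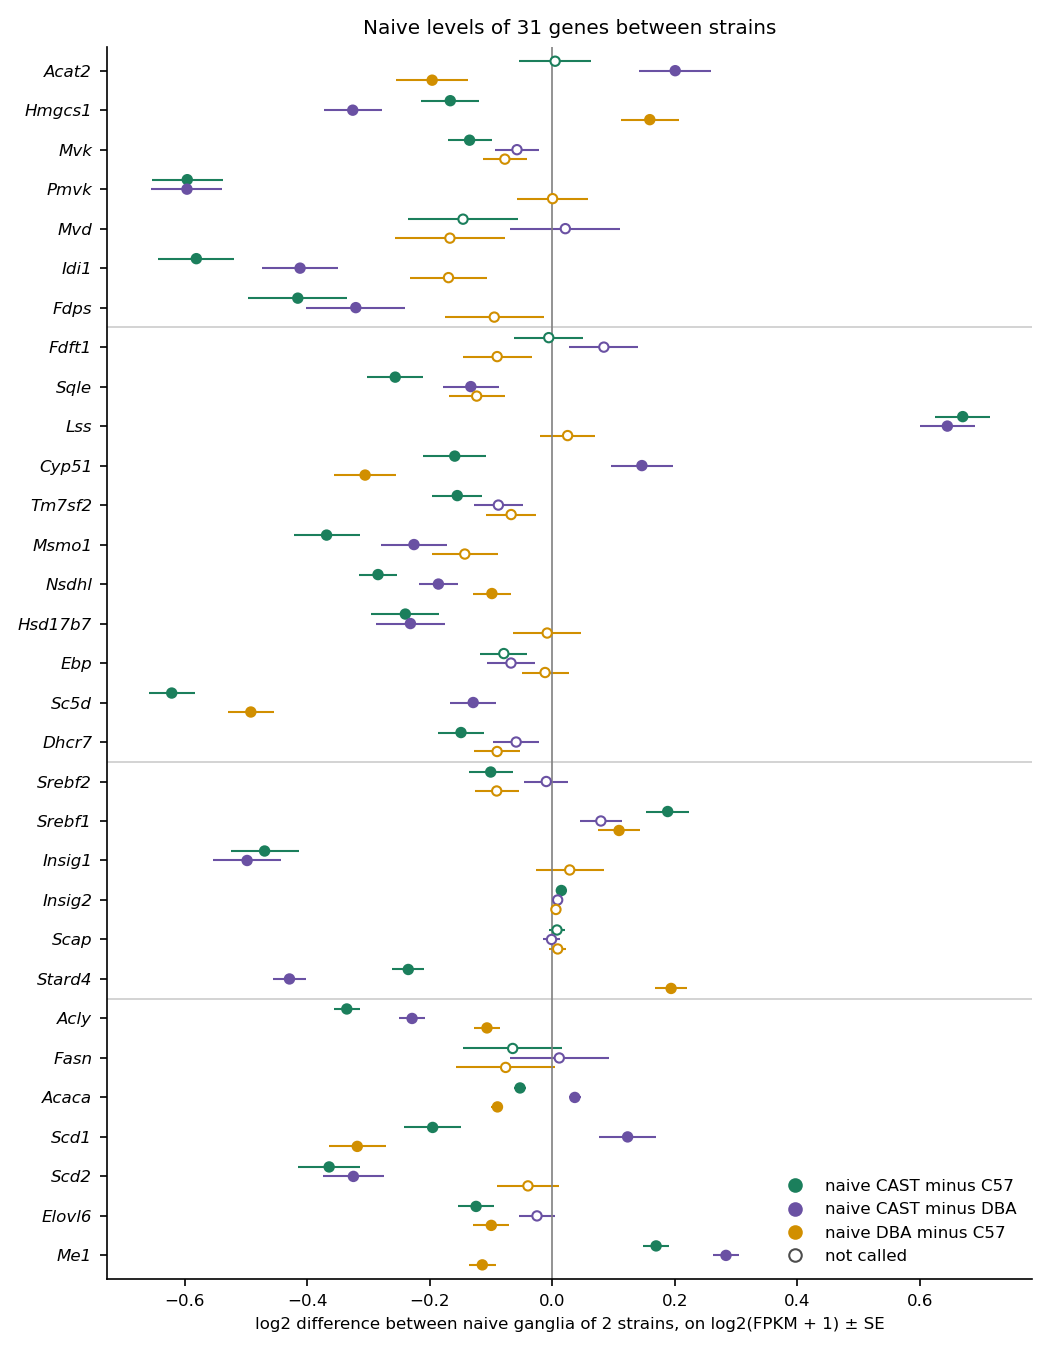
Log2 difference in level between naive ganglia of pairs of strains for the 31 genes, on the log2(FPKM + 1) scale with its SE, drawn for CAST minus C57, CAST minus DBA and DBA minus C57 from top to bottom within each gene; filled points passed the limma test. Lss is higher in CAST than in both other strains, and Pmvk, Idi1 and Insig1 are lower.

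The largest naive differences stood at single enzymes. Pmvk had 0.816, 0.836, 0.83 and 0.952 FPKM in naive CAST ganglia, 1.82, 1.89, 1.67 and 1.86 FPKM in naive DBA ganglia and 2.12, 1.63, 1.60 and 1.92 FPKM in naive C57 ganglia. Every CAST library lay below every library of the other strains, 2.12-fold below C57 on average (limma adjusted p = 4.37e-08) and 2.11-fold below DBA (4.29e-08). Lss went the opposite way, with 1.67, 1.76, 1.77 and 1.81 FPKM in naive CAST ganglia, 0.833, 0.852, 0.693 and 0.667 FPKM in naive DBA ganglia and 0.681, 0.661, 0.688 and 0.895 FPKM in naive C57 ganglia. Its CAST libraries lay far above all others, 2.40-fold above C57 (1.44e-10) and 2.3-fold above DBA (2.69e-10). Sc5d had 2.98, 2.98, 3.06 and 3.25 FPKM in naive CAST ganglia, 3.46, 3.51, 3.32 and 3.49 FPKM in naive DBA ganglia and 5.12, 5.52, 5.27 and 5.10 FPKM in naive C57 ganglia. Here both CAST and DBA were below C57, 1.71-fold (3.06e-11) and 1.52-fold (2.85e-09), and CAST was 1.12-fold below DBA (0.00773). The antisense gene 4930483K19Rik overlaps Lss, and no annotated gene of the table overlaps Pmvk or Sc5d.

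Idi1 was 1.63-fold lower in naive CAST than naive C57 ganglia, Msmo1 1.5-fold, Nsdhl 1.48-fold, Insig1 1.43-fold, and Acly and Fdps 1.38-fold each (limma adjusted p between 9.77e-11 for Acly and 0.000265 for Fdps). Higher in naive CAST than naive C57 were Lss, Srebf1 (1.27-fold, 0.000147), Me1 (1.25-fold, 1.82e-06) and Insig2 (1.07-fold, 0.0375), the last of which was lost in 13 alternative fits. Mvd, Fasn, Acat2, Fdft1, Ebp and Scap did not pass the test between these strains. Of 8 adipocyte markers tested, 7 were higher in naive CAST than in naive C57 ganglia, with summed levels of 5.04 to 13.5 against 0.687 to 2.88 FPKM; the part of adipocytes in the difference of Me1 was not tested. Summed satellite glia markers were 23.9 to 36.5 FPKM in naive CAST against 36.9 to 39.7 FPKM in naive C57 ganglia, with 2 of 7 called higher and 3 lower. Summed markers of myelinating Schwann cells had a median of 106.6 FPKM in naive CAST against 136.9 FPKM in naive C57 ganglia, with 2 of 12 called higher and 4 lower. The sums overlapped, from 94.6 to 128.2 FPKM in naive CAST and from 121.7 to 148.3 FPKM in naive C57. The part of glia in the lower levels of the members in CAST was not tested.

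Between naive CAST and naive DBA ganglia, 13 members were lower and 6 higher in CAST, where 44.2% of all genes were called, 20.5% lower and 23.7% higher. Libraries did not overlap for 14 lower and 6 higher members, against 22.3% and 25.2% of all genes. Beside Pmvk, the members lower in CAST included Stard4 (1.59-fold, limma adjusted p = 4.01e-11), Insig1 (1.46-fold, 2.88e-07), Idi1 (1.42-fold, 1.55e-05) and Hmgcs1 (1.26-fold, 9.80e-06). Higher in CAST were Lss, Me1 (1.47-fold, 1.21e-09), Acaca (1.29-fold, 0.00421), Acat2 (1.19-fold, 0.0082), Cyp51 (1.17-fold, 0.0248) and Scd1 (1.09-fold, 0.0377). The call of Scd1 was lost in 8 alternative fits, both other scalings among them (upper quartile 0.287), and that of Cyp51 in 6 (upper quartile 0.0947, and 0.117 without naive CAST replicate 4). Of 12 markers of myelinating Schwann cells, 9 were lower in naive CAST than naive DBA ganglia and none higher, with summed levels of 94.6 to 128.2 against 146.3 to 190.0 FPKM, and their part in the members' differences was not tested.

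Between naive DBA and naive C57 ganglia, 3 members were higher and 9 lower in DBA, where 21.3% of all genes were called, 11.1% higher and 10.2% lower. Libraries did not overlap for 3 higher and 11 lower members, against 11.9% and 10.9% of all genes. Acaca, which makes malonyl-CoA, had 0.101, 0.0977, 0.0952 and 0.0920 FPKM in naive DBA ganglia and 0.139, 0.161, 0.187 and 0.179 FPKM in naive C57 ganglia. All DBA libraries lay below all C57 ones, 1.73-fold on average (limma log2 difference −0.09 ± 0.0098 (SE), adjusted p = 5.95e-07). Also lower in DBA were Sc5d, Cyp51 (1.38-fold), Scd1 (1.25-fold), Acat2 (1.20-fold), Me1 (1.18-fold), Elovl6 (1.15-fold), Nsdhl (1.14-fold) and Acly (1.10-fold). Stard4 (1.22-fold), Srebf1 (1.15-fold) and Hmgcs1 (1.12-fold) were higher in DBA. These calls were lost in 6 alternative fits for Nsdhl, 5 for Acat2, 5 for Srebf1, 4 for Elovl6 and 3 for Hmgcs1. The 5 fatty acid genes among those lower in DBA were Acly, Acaca, Scd1, Elovl6 and Me1, of 7 in the set. Of 12 markers of myelinating Schwann cells, 9 were higher in naive DBA than naive C57 ganglia and none lower. Their part in the members' differences was not tested.

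Genes around the pathway were counted after crush as well. Among all tested genes, 25.6% rose and 21.5% fell in CAST, 26.4% and 23.8% in DBA, and 18.1% and 20.5% in C57. The counts below stand beside these shares. Of 12 genes of sterol efflux and oxysterols, 5 rose and 3 fell in CAST, 6 and 3 in DBA, and 5 and 3 in C57. The cholesterol exporter Abca1 averaged 2.33 FPKM in injured against 1.11 FPKM in naive CAST ganglia, 3.41 against 0.825 FPKM in DBA and 2.89 against 0.710 FPKM in C57 (limma adjusted p = 6.18e-09, 2.30e-13 and 1.58e-12). Ch25h, which makes an oxysterol, averaged 1.53 against 0.395 FPKM in injured and naive CAST, 1.68 against 0.403 FPKM in DBA and 0.931 against 0.588 FPKM in C57 ganglia (1.08e-08, 2.93e-09 and 0.00563). The exporter Abcg1 fell in all 3 strains, with log2 fold changes of −0.34, −0.28 and −0.18. By limma, the response of Abca1 was lower in CAST than in C57 (−0.53 ± 0.080 (SE), adjusted p = 8.69e-05) and DBA (−0.62 ± 0.080 (SE), adjusted p = 1.08e-05).

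Of 12 genes of sterol uptake, lysosomal release and storage, 5 rose and 1 fell in CAST, 7 and 2 in DBA, and 4 and 2 in C57. Gramd1a, a sterol carrier of the endoplasmic reticulum, rose in all 3 (log2 fold changes of 0.32, 0.49 and 0.44), as did the lysosomal carrier Npc2 (0.25, 0.21 and 0.17). Of 20 other genes of fatty acid and glycerolipid synthesis, 5 rose and 7 fell in CAST, 8 and 7 in DBA, and 6 and 5 in C57. Mid1ip1, a partner of acetyl-CoA carboxylase, fell in all 3 strains, with log2 fold changes of −0.37, −0.46 and −0.34. Of 12 genes of fatty acid oxidation, 2 rose and 2 fell in CAST, 2 and 5 in DBA, and 2 and 5 in C57, with Acadm, an acyl-CoA dehydrogenase, lower in each (−0.14, −0.20 and −0.13). In the isoprenoid branch of 10 genes, 2 rose and 3 fell in CAST, 4 and 4 in DBA, and 2 and 3 in C57. In CAST 50% of the branch and 50% of the sterol uptake list were called, near the 47.2% of all genes. Crush called 50.1% of all genes in DBA and 38.6% in C57. Of 7 genes that process SREBP or degrade sterol enzymes, 3 rose and none fell in CAST, 4 and 1 in DBA, and 4 and 1 in C57.

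Markers of other cells moved with crush too. Their counts stand beside the shares of all genes that rose and fell, 25.6% and 21.5% in CAST. These shares were 26.4% and 23.8% in DBA, and 18.1% and 20.5% in C57. The summed level of 10 macrophage markers was 36.8 to 47.2 FPKM in injured against 4.16 to 5.22 FPKM in naive CAST ganglia, 31.8 to 35.6 against 5.38 to 6.73 FPKM in DBA, and 25.7 to 30.1 against 5.23 to 6.51 FPKM in C57. All 5 fibroblast markers rose in CAST and DBA, and 4 of 5 in C57. Of 12 markers of myelinating Schwann cells, 4 rose and none fell in CAST, 3 rose and 1 fell in DBA, and 2 rose and none fell in C57. Of 7 repair Schwann cell markers, 3 rose and 1 fell in CAST, 5 rose and none fell in DBA, and none rose and 2 fell in C57. Their summed level did not rise in CAST, with 33.5 to 34.4 FPKM in injured against 34.6 to 39.7 FPKM in naive ganglia. It was 38.25 to 40.75 against 36.3 to 41.1 FPKM in DBA, and 33.6 to 40.5 against 40.1 to 44.0 FPKM in C57. The response of 4 of these 7 was lower in CAST than in DBA, and of none higher. Against C57, the response in CAST was higher for 2 of the 7 and lower for 1. Of the 10 macrophage markers, 5 had a higher response in CAST than in DBA and 1 a lower one. Against C57, 7 of the 10 had a higher response in CAST and 2 a lower one. Of all genes, 8.08% were called higher and 7.54% lower against DBA, and 7.99% higher and 5.14% lower against C57. Of 7 satellite glia markers, 1 rose and 2 fell in CAST, 3 and 1 in DBA, and 1 and 1 in C57. Their summed level was 21 to 25.5 FPKM in injured against 23.9 to 36.5 FPKM in naive CAST ganglia, 43.9 to 51.5 against 44.5 to 47.8 FPKM in DBA, and 45.5 to 50.1 against 36.9 to 39.7 FPKM in C57. Of 4 endothelial markers, 3 rose in CAST, 2 in DBA and none in C57, and none fell. Of 10 sensory neuron markers, 2 rose and 7 fell in CAST, 2 and 7 in DBA, and 2 and 6 in C57. Of 8 adipocyte markers tested, 1 rose in CAST, 2 in DBA and 2 in C57, and none fell. Log2 fold changes were above 0 for 1 of the 8 in CAST, 3 in DBA and 4 in C57. The adipocyte sum in injured C57 ganglia was mostly Car3, at 4.64 to 5.54 FPKM against 0.182 to 0.443 FPKM in naive C57. Fabp4 had 0.134 to 0.267 FPKM in injured against 0.148 to 0.764 FPKM in naive C57 ganglia. No marker of these lists was at 0 in every library. The part of macrophages, fibroblasts, adipocytes, glia, endothelium or neurons in the members' responses was not tested.

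**Figure D5:**
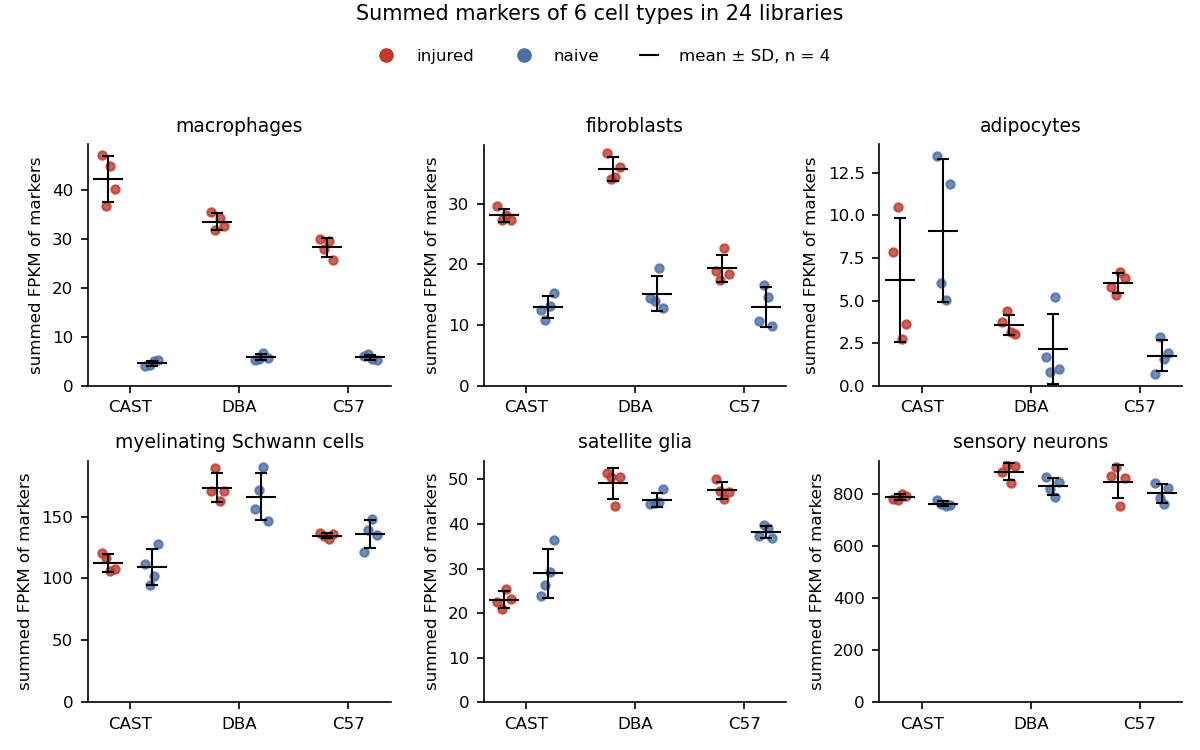
Summed FPKM of the marker genes of 6 cell types in each library, for injured (red) and naive (blue) ganglia of CAST, DBA and C57 mice, with mean ± SD of 4 libraries and axes that start at 0. Macrophage markers separate injured from naive libraries in all 3 strains, whereas markers of myelinating Schwann cells overlap between injured and naive libraries.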

How the data were processed

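RNA-seq of whole dorsal root ganglia was analysed in 24 libraries. Reads were aligned with STAR 2.3.0 to mm10, per the submitters' processing notes; how reads were counted (tool, annotation, strand) is not given in the sources used here. FPKM is the unit the authors deposited, without counts. Multiplying by gene span and scaling gave approximate reads. Among the lower of these estimates, 64.4% to 69.5% were whole within 0.05 reads (10.0% by chance). The main fit therefore used no count test, and voom was run on these estimates only as an alternative. Genes with 10 estimated reads in 4 libraries were fitted as log2(FPKM + 1) with limma 3.58.1 (trend, robust variance, statmod 1.5.0, R 4.3.3) over 6 group means. Benjamini-Hochberg adjustment ran over 27046 genes within each of 9 contrasts. The fit was tested on simulated data. Scaling, pseudocount, filter, voom, single libraries left out and a replicate block were tried as alternatives. Overlaps came from the GENCODE M21 annotation and promoters from RefSeq GRCm38.p6. All 31 members could be named, and at most 4 called genes per other list and contrast. Members and lists were chosen with earlier results of these data known.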

Additional observations from a re-analysis of the deposited data

Results flagged for a closer look

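In 11 of 186 groups of 4 libraries, a single library stood far from the other 3 by Dixon's criterion, which chance meets in about 1 in 20 groups. In injured CAST ganglia these were replicate 3 for Mvd (4.91 FPKM, the others 4.42 to 4.49) and for Lss (1.67, the others 1.83 to 1.85). In naive CAST ganglia they were replicate 4 for Pmvk (0.952, the others 0.816 to 0.836) and Scap (0.351, the others 0.326 to 0.33), and replicate 1 for Insig2 (0.186, the others 0.175 to 0.177). In naive DBA ganglia they were replicate 4 for Fdps (11.5, the others 10.9 to 11.0) and replicate 3 for Dhcr7 (0.675, the others 0.725 to 0.734). In injured C57 ganglia replicate 3 stood apart for Mvk (0.65, the others 0.743 to 0.748) and Me1 (1.13, the others 1.04 to 1.05). In naive C57 ganglia replicate 4 stood apart for Lss (0.895, the others 0.661 to 0.688) and Fasn (23.2, the others 17.0 to 18).

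The response to crush differed between strains by limma's interaction term in 15 cases, given as log2 differences with adjusted p. For CAST minus C57 these were Acly (0.19, 0.000153), Hmgcs1 (−0.25, 0.0146), Scd2 (−0.22, 0.0414) and Me1 (−0.11, 0.022). For CAST minus DBA they were Acly (0.32, 2.33e-07), Mvd (−0.40, 0.0386), Fasn (−0.37, 0.0291), Hsd17b7 (−0.30, 0.0105), Scd1 (−0.26, 0.00806), Cyp51 (−0.25, 0.0238), Scd2 (−0.23, 0.0298) and Hmgcs1 (−0.22, 0.0265). For DBA minus C57 they were Hsd17b7 (0.30, 0.0203), Scd1 (0.26, 0.0162) and Acly (−0.13, 0.0118).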

How the results depend on the processing

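No member changed direction while called under any alternative. The count of members whose response differed between CAST and C57 was 1, with 0 lower, when only the groups of the contrast were fitted (4 and 3 otherwise), and 5 were lower without the 3 libraries set apart. For DBA minus C57, 1 was higher without those libraries (2 otherwise), and 2 were lower without robust variance (1 otherwise). The cause was not tested. CCAAT was found in 11 members on the gene's strand alone, 44% beside 23.7% of all genes. On both strands it was found in 21, 84% beside 41.1%. With single libraries left out, the crush counts ran from 13 to 16 in CAST (5 to 7 higher, 6 to 11 lower), 15 to 19 in DBA (12 to 16 and 3) and 16 to 19 in C57 (11 to 15 and 3 to 5). In CAST more members fell than rose with all libraries, but 7 rose and 6 fell without naive CAST replicate 4. The interaction counts ran from 2 to 5 for CAST minus C57 (1 to 4 lower), from 3 to 10 for CAST minus DBA (2 to 9 lower) and from 1 to 2 lower for DBA minus C57. Of naive differences, DBA minus C57 gave 1 to 3 higher. The lower count for CAST minus C57 was 1 without injured CAST replicate 1, that for DBA minus C57 was 2 without injured C57 replicate 4 or naive C57 replicate 1, and the naive count higher in DBA than C57 was 1 without naive C57 replicate 3 or naive DBA replicate 1. The labels give same-numbered libraries nothing in common but the number. Correlations ran from −0.22 to 0.23 in 12 pairs, with 2 over 0.1 and 4 best with their own number. Weak correlations cannot exclude a shared animal or batch. With the replicate block, 7 members rose and 10 fell in CAST, where Mvd (adjusted p = 0.043, limma) and Pmvk (0.015, lower) were called, 16 and 3 in DBA, and 13 and 4 in C57.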
